A study of Mus musculus with 3 samples.

Results

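The ATF4 and XBP1 stress response was followed through 10 genes: Atf4, Ddit3, Xbp1, Ern1, Trib3, Chac1, Asns, Psat1, Phgdh and Herpud1. A probe set counted for a gene when the platform annotation gave it exactly 1 symbol, that of the gene. Each of the 10 genes had 1 such probe set, so none had to be chosen over another. They are 10 of 20658 genes named in this way, with the olfactory, vomeronasal and taste receptor genes set aside as a background reference. Expression was measured on Affymetrix arrays in 3 samples of mouse tumour stroma, all with the genotype label Dicer1 +/-, where Dicer1 encodes the enzyme that cuts microRNA precursors. The labels do not say in which cells the allele was altered. The cells were released from the tumours by 1 hour of enzyme digestion at 37 °C and sorted as live cells negative for PECAM1, an endothelial surface protein, and for the red fluorescent protein tdTomato, which marked the tumour cells. The series names its mice ASD. The sources used here give neither the driver of the tumours and of tdTomato nor the ages of the mice. Stroma of ASD +/+ tumours, the other group in the series title, was not analysed here, so the values describe 1 group and no comparison between genotypes was made.

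Cells that meet unfolded protein in the endoplasmic reticulum (ER), amino acid shortage, virus RNA or lack of haem slow translation by phosphorylating the initiation factor eIF2. The mRNA of the transcription factor ATF4 is then translated better, and ATF4, partly with its partner CHOP (the product of Ddit3), switches on genes for amino acid synthesis, uptake and redox defence. In a parallel branch the ER sensor IRE1 (the product of Ern1) splices the Xbp1 mRNA, and the resulting factor XBP1s switches on genes for secretion, folding and ER-associated degradation. Since ATF4 and XBP1s are controlled at translation and splicing, the level of either mRNA is not a measure of the active protein, and the single deposited value for Xbp1 does not separate the spliced from the unspliced form.

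Promoter sequences are shown first, because members with the same motif went different ways between the samples. The windows run from 250 bases before to 50 bases after each annotated start of a gene (RefSeq, GRCm38.p6), and all 10 members matched, with 11 windows since Psat1 has a pair. Positions count from 0 at the first base of the gene. The composite site of ATF4 and C/EBP factors, called CARE, was searched on both strands as TGATGNAAN, where N is any base. It occurred in 4 of 11 member windows, those of Chac1, Herpud1, Asns and Trib3, and in 3.95% of all 32851 windows. Chac1 and Herpud1 held the same 9 letters on the reverse strand, GTTGCATCA. Herpud1 also held ERSE-II, an ER stress element searched as ATTGG, any base and CCACG, which occurred in 0.0365% of all windows. The matches are in capitals, with the stretch read along the gene's own strand.
Chac1, chr2:119350998-119351106, plus strand, bases -244 to -136: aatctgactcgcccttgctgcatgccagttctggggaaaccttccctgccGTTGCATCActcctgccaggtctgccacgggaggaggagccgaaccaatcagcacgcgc
Herpud1, chr8:94386266-94386428, plus strand, bases -163 to -1: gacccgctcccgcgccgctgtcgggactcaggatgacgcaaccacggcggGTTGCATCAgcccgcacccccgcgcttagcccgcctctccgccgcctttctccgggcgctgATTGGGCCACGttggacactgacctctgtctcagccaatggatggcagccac
Asns, chr6:7693210-7693282, minus strand, bases -73 to -1: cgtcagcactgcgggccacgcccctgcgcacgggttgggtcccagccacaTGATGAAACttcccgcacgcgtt
Trib3, chr2:152344028-152344057, minus strand, bases 3 to 32: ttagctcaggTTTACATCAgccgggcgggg

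The other motifs were the ER stress element ERSE (CCAAT, any 9 bases, CCACG), the XBP1 site UPRE (TGACGTGG) and the cyclic AMP site CRE (TGACGTCA). None of these letters occurred in a member window, against 0.119%, 0.676% and 1.79% of all windows. A match is a run of letters and not evidence that a factor binds there, and a window without one shows only that these letters are absent from it.

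**Figure D1:**
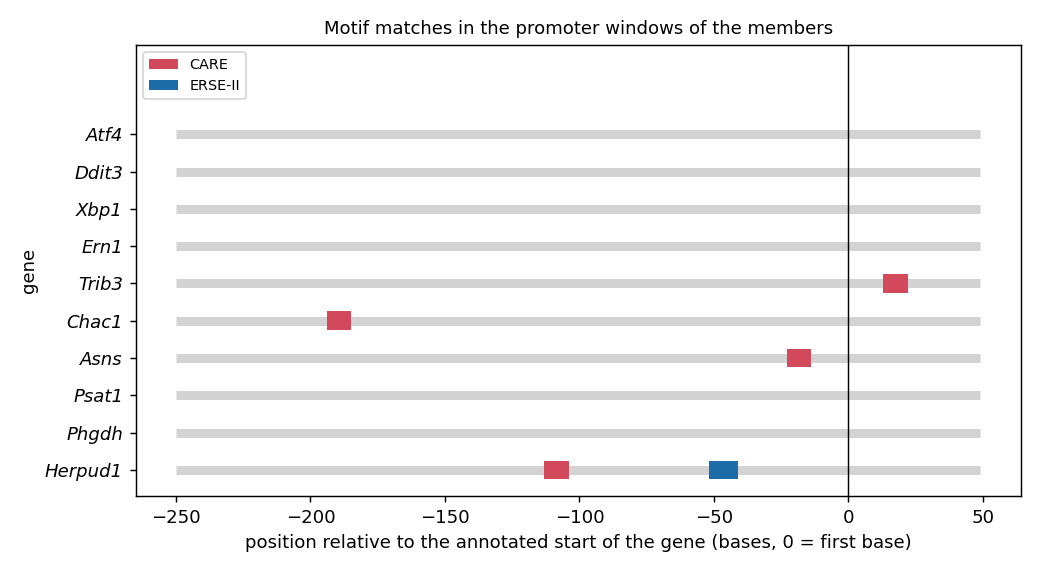
Motif matches along the promoter windows of the 10 members, with the position from the annotated gene start in bases on the horizontal axis and 1 grey bar per gene. CARE matches (red) lie in Chac1, Herpud1, Asns and Trib3, the ERSE-II match (blue) in Herpud1 alone, and the other 6 genes have no match. Neither Psat1 window has one.

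Levels are log2 intensities as deposited, so that a difference of 1 is 2-fold. A gene counted as detected on an array when it lay above the 95th percentile of 1438 receptor probe sets, which stood at 5.16, 5.11 and 5.20 in samples 1, 2 and 3. Probe brightness differs between genes, and levels are therefore compared between samples of the same gene only. Of the 10 members 9 were detected on every array, against 60.5% of all named genes, and Trib3 on none. With 1 array per sample and 1 group there is no test. The range, highest minus lowest sample, is given in its place beside the ranges of all genes. Nothing in the labels ties each sample to an animal of its own, so each SD covers only the spread between these 3 samples, and 3 arrays limit its precision.

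The samples differed in sex-linked genes and in cell type markers. The X-inactivation RNA Xist stood at 9.78, 3.43 and 3.49 in samples 1 to 3, and the Y-linked Eif2s3y at 3.86 against 8.51 and 8.71. Dicer1 itself stood at 8.10, 8.10 and 8.08. For fibroblast markers, 8 of 8 genes peaked in sample 2 and had their minimum in sample 3, and for T cell markers 6 of 6 peaked in sample 1 with their minimum in sample 2. Gland and epithelial markers were split, with 1 highest in sample 1, 3 in sample 2 and 4 in sample 3. Of these Lpo was below background on every array. Over all detected genes the shares were 33%, 34.2% and 32.8%. Lipf stood at 3.11, 9.24 and 3.42 and Bpifb1 at 3.92, 9.36 and 4.91, both above background in sample 2 alone. Highest in sample 3 were Cdh1, at 7.16, 6.47 and 8.13, and Muc5b, at 9.12, 8.86 and 10.01. In RNA from sorted populations, fewer cells of a type and less RNA per cell cannot be told apart.

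Of the transcription factors among the members, Atf4 differed least between the samples and Xbp1 most. Atf4 stood at 10.95, 10.95 and 10.97 in samples 1 to 3, with a mean of 10.96 ± 0.014 (SD, n = 3). Its range of 0.025 lay at percentile 2.83 of the ranges of 13636 genes detected on at least 1 array. The range shrank to 0.0077 with the arrays centred on their medians and to 0.0036 after quantile normalization. Ddit3, whose product CHOP pairs with ATF4 and promotes cell death under lasting stress, stood at 9.13, 9.25 and 9.37 (mean 9.25 ± 0.12, SD, n = 3), a range of 0.24 against a median of 0.31 over all these genes. Sample 3 was the highest and sample 1 the lowest for Ddit3, 1.18-fold apart. Xbp1 stood at 8.98, 8.67 and 8.93 (mean 8.86 ± 0.16, SD, n = 3), and sample 2 was the low one, 1.24-fold below sample 1. Its range of 0.31 lay at percentile 49.2. Plasma cells, which depend on XBP1 for antibody secretion, had 5 of 8 markers lowest in sample 2, beside 30.9% of all detected genes. The other 3 markers were lowest in sample 3. The joining chain gene Jchain of these cells stood at 8.69, 5.07 and 6.81 and the chaperone gene Mzb1 at 8.30, 6.55 and 6.81. Sdc1 was highest in sample 2, at 7.08, 7.08 and 6.77, and Prdm1 in sample 3, at 6.83, 6.57 and 7.12. The summed linear intensity of the 8 markers ranged from 1033 in sample 2 to 1979 in sample 1. Such a sum, here and below, is set mostly by the brightest probe sets and does not measure the amount of a cell type. Jchain was below background in sample 2, Tnfrsf17 in samples 2 and 3 and Tnfrsf13b in sample 2. The part of these cells in the Xbp1 values was not tested.

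Ern1, the ER sensor that splices Xbp1, stood at 7.54, 7.82 and 8.0 in samples 1 to 3 (mean 7.79 ± 0.23, SD, n = 3). Its highest sample was sample 3 and its lowest sample 1, 1.38-fold apart. Xbp1 did not share that order, since it was highest in sample 1.

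Of the members known as strongly inducible targets, Chac1 had the widest range of the 10 and Trib3 was not detected. Chac1, which degrades glutathione and is induced by ATF4 and CHOP, stood at 5.50 in sample 1, 5.75 in sample 2 and 6.87 in sample 3 (mean 6.04 ± 0.73, SD, n = 3). Samples 1 and 2 lay 0.34 and 0.64 above the background level of their arrays and sample 3 lay 1.67 above it. The range of 1.37, 2.58-fold, was at percentile 97.7 of all detected genes. Intensity near background understates a fold, so the size of this difference is uncertain. Chac1 was the 1 member of the 9 detected with a range above 1, a size reached by 5.7% of detected genes. Without sample 3 its range was 0.25.

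Trib3, a pseudokinase that restrains ATF4 and CHOP in a feedback loop, stood at 4.15, 4.07 and 4.46, that is 0.74 to 1.04 below the background level. It was not detected at this sensitivity, and the differences between its values carry no order. Its window holds a CARE match, as do those of Chac1 and Asns.

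**Figure D2:**
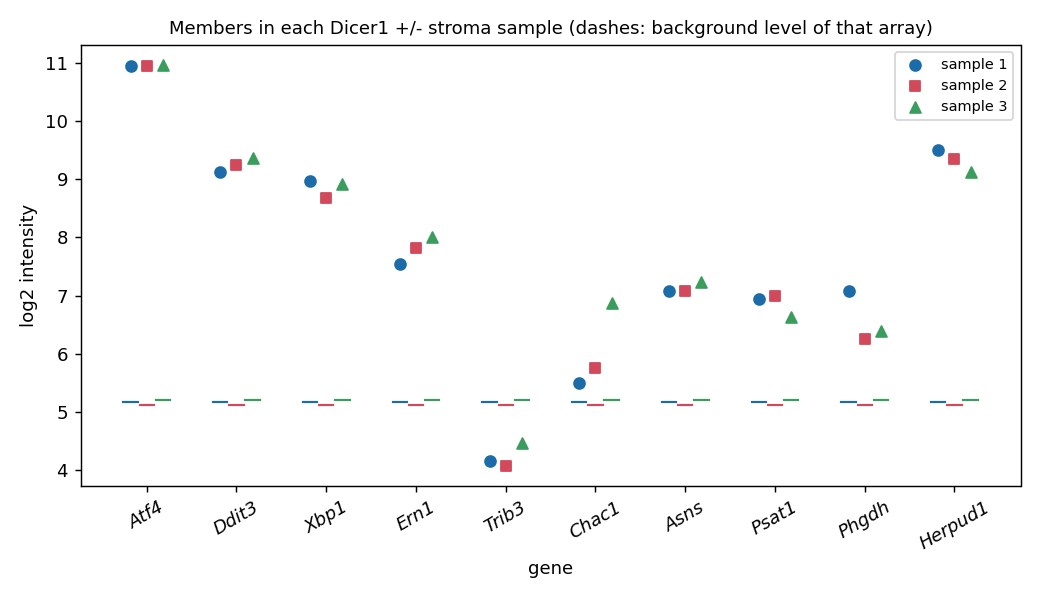
Log2 intensity of each member (vertical axis) in samples 1 (circle), 2 (square) and 3 (triangle), with short dashes at the background level of each array, between 5.11 and 5.20. Chac1 stands apart in sample 3 at 6.87, Phgdh in sample 1 at 7.07, and Trib3 lies below the dashes in all 3 samples.

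The members that make amino acids did not move as a group. Asns, which makes asparagine and is a classic target of ATF4, stood at 7.08, 7.09 and 7.24 (mean 7.14 ± 0.087, SD, n = 3), a range of 0.15. Samples 1 and 2 differed by 0.0026. Phgdh, the entry enzyme of serine synthesis, stood at 7.07, 6.25 and 6.38 in samples 1 to 3 (mean 6.57 ± 0.44, SD, n = 3). Its range of 0.82, 1.76-fold, was at percentile 90.3, and without sample 1 it was 0.13. Phgdh lay 1.14 and 1.19 above the background level in samples 2 and 3. Sample 1 was also the only sample with high Xist and low Eif2s3y, and the part of sex in the Phgdh values was not tested. Psat1, the next enzyme of the same pathway, stood at 6.94, 6.99 and 6.64 (mean 6.85 ± 0.19, SD, n = 3), and its low sample was sample 3. The Psat1 range of 0.35 lay at percentile 55.6, near the middle of all detected genes. Phgdh stood apart in sample 1 and Psat1 did not, although their products act in sequence.

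Chac1 and Phgdh were the 2 members with a range above 0.5, a size reached by 26.8% of detected genes. Lymphocyte markers were also highest in sample 1. This held for 5 of 5 B cell markers, whose summed linear intensity was 2919 there and 1428 and 1336 in samples 2 and 3, and for 6 of 6 T cell markers, at 1494, 373 and 815. The B cell marker Cr2 was below background in samples 2 and 3, and no T cell marker was below it in any sample. Their part in the Phgdh values was not tested.

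Herpud1, a membrane protein of the ER that serves the degradation of misfolded proteins, stood at 9.51, 9.35 and 9.12 in samples 1 to 3 (mean 9.33 ± 0.20, SD, n = 3). Sample 3 was the lowest and sample 1 the highest, 1.31-fold apart. In Chac1, which holds the same CARE letters, sample 3 was the highest and sample 1 the lowest.

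Across the 9 detected members, 5 were highest in sample 3, 3 in sample 1 and 1 in sample 2, beside 32.8%, 33% and 34.2% of detected genes. The lowest value lay in sample 1 for 5 members, in sample 2 for 2 and in sample 3 for 2, beside 35.8%, 30.9% and 33.3%. With Trib3 included, the median over the 10 members of the difference from the gene's mean was -0.030, -0.029 and 0.085 in samples 1 to 3. Over the 9 detected members the middle value was that of Atf4 in samples 1 and 2, -0.0086 and -0.0080. In sample 3 it was that of Xbp1, 0.068. The medians over all detected genes were -0.0070, 0 and -0.00062.

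**Figure D3:**
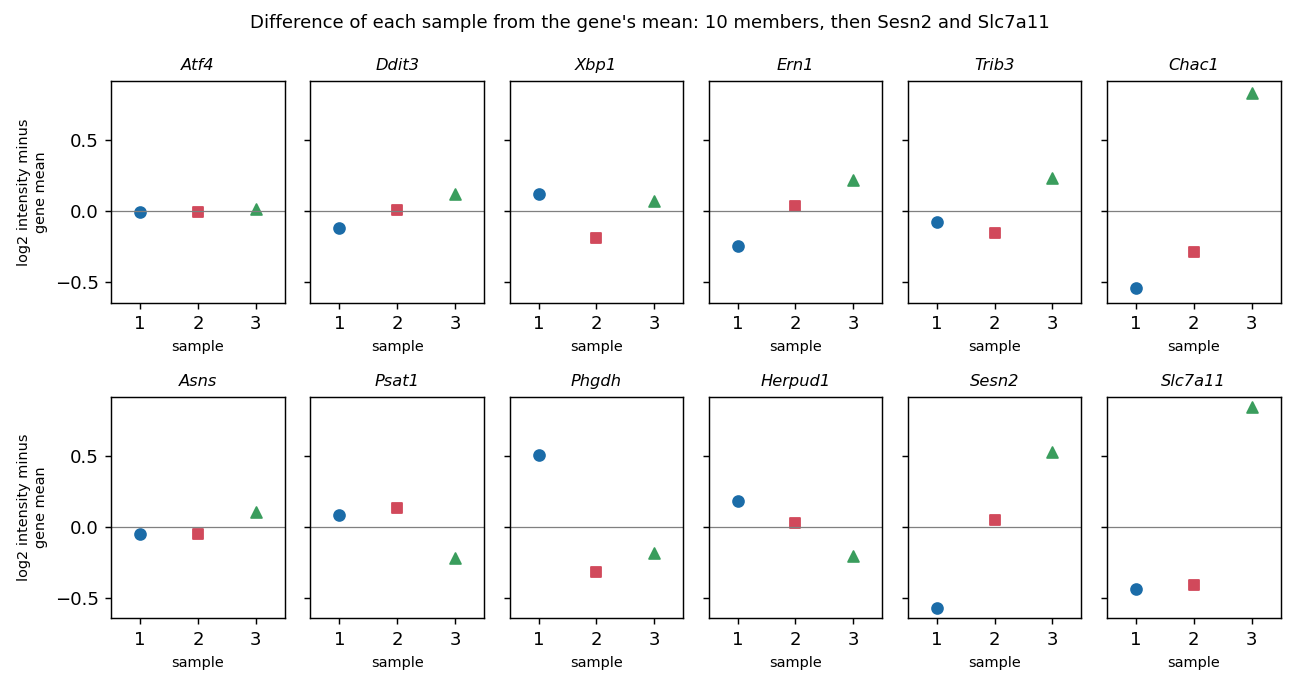
Log2 intensity minus the gene's mean over the 3 samples (vertical axis) in each sample, for the 10 members and for Sesn2 and Slc7a11, the 2 further genes of the response with a range above 1. Chac1, Sesn2 and Slc7a11 are highest in sample 3 by 0.53 to 0.84 above their means, Atf4 is within 0.017 of its mean, and Herpud1 and Psat1 are lowest in sample 3.

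To place the members within the whole response, 86 further genes were listed by role in 8 lists, and 79 were measured under a single symbol. Of these 79 genes 77 were detected on every array, beside 60.5% of all named genes, and 78 on at least 1. A range above 0.5 occurred in 4 of the 78 (5.13%) and a range above 1 in 2 (2.56%), beside 26.8% and 5.7% of all detected genes. The median range was 0.25, beside 0.31.

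Upstream of ATF4, all 6 measured genes for eIF2 kinases and phosphatase subunits were detected on every array, beside 60.5% of all named genes. None had a range above 0.5, a size reached by 26.8% of detected genes. The haem-regulated kinase Eif2ak1 stood at 7.70, 7.93 and 7.84 and the RNA-activated kinase Eif2ak2 at 6.63, 6.97 and 6.85. The kinase of amino acid shortage, Eif2ak4, had the widest range here, at 6.27, 6.61 and 6.69, which lay at percentile 64.6.

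Among 11 measured partners and regulators, 6 were highest in sample 2 and 4 in sample 3, beside 34.2% and 32.8% of all detected genes. Sesn2, a stress-induced inhibitor of the growth kinase mTORC1, stood at 6.18, 6.80 and 7.28, a range of 1.10. Its lowest value, in sample 1, lay 1.02 above the background level, so the size of this range is uncertain. Atf5, a factor related to ATF4, stood at 7.73, 8.25 and 7.50, and was highest in sample 2. Atf3, another factor of the response that is also induced by cell isolation, stood at 10.88, 11.07 and 11.15. Sesn2 shared with Chac1 its lowest sample, 1, and its highest, 3, and its range was 0.62 without sample 3 and 0.48 without sample 1.

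Sample 3 held the highest value of 5 of the 7 measured amino acid carriers, and sample 1 the lowest value of 5, beside 32.8% and 35.8% of all detected genes. Slc7a11, the cystine carrier that feeds glutathione synthesis, stood at 8.66 and 8.69 in samples 1 and 2 and at 9.93 in sample 3, a range of 1.28 that was 0.029 without sample 3. Its shared heavy chain Slc3a2 stood at 9.60, 9.68 and 9.75. The glutamine carrier Slc38a2 had the second widest range, at 10.58, 10.64 and 11.04. The Slc7a11 window is shown because it held a pair of CARE matches 9 bases apart, in opposite directions. It was also picked because the gene stood out in the same sample as Chac1. Of the other list genes with a CARE match, Atf3 and Got1 were highest in sample 3 too. Nupr1, Fgf21, Slc1a4, Gars, Iars, Yars and Tars were lowest in sample 3, and Vldlr was highest in sample 2 and lowest in sample 1.
Slc7a11, chr3:50443614-50443729, minus strand, bases -116 to -1: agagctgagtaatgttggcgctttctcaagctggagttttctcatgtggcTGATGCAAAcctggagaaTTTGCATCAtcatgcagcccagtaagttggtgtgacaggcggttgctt

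Enzymes and tRNA ligases of the response gave no range above 0.5, a size reached by 26.8% of detected genes. Of 9 measured genes for serine, folate and proline synthesis 8 were detected on every array, beside 60.5% of all named genes. Psph, the last enzyme of serine synthesis, stood at 6.33, 6.29 and 6.41, and Shmt2, which passes serine carbon to folate in mitochondria, at 8.09, 8.0 and 8.04. The widest were the mitochondrial folate enzymes Mthfd2 at 6.59, 6.53 and 6.92 and Mthfd1l at 6.97, 6.80 and 7.13. Of 11 tRNA ligases 8 were lowest in sample 3 and 1 was highest there, beside 33.3% and 32.8% of all detected genes. Cars, for cysteine, had the same highest value of 7.02 in samples 2 and 3 and was counted for sample 2. Markers lowest in the same sample were 8 of 8 for fibroblasts, 6 of 7 for pericytes and smooth muscle and 5 of 6 for macrophages, and their part in the ligase values was not tested. Gars, the ligase for glycine, stood at 8.90, 8.86 and 8.77 and Sars, for serine, at 8.67, 8.60 and 8.69. The widest ranges were those of Tars, for threonine, at 8.58, 8.50 and 8.14 and Eprs, for glutamate and proline, at 8.95, 9.04 and 8.78.

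Sample 3 also held more signal from several cell types. All 6 cartilage and bone markers were highest there, with Acan at 8.10, 9.07 and 9.94 and Col2a1 at 8.10, 9.11 and 9.66, and their summed linear intensity went from 1267 in sample 1 to 3554 in sample 3. So were 7 of 8 markers of neutrophils and their precursors, with a sum of 20295, 22421 and 27076, although S100a8 and S100a9 were at 12.47, 12.43 and 12.43 and at 12.29, 12.25 and 12.34. Dendritic markers were highest in sample 3 for 5 of 5 genes (sums 3097, 2287 and 3940) and endothelial markers for 5 of 6 (sums 464, 395 and 774). The sort was meant to remove cells with PECAM1, and Pecam1 mRNA, which leukocytes also make, stood at 8.02, 7.20 and 8.25. The bone gene Bglap was below background in samples 1 and 3, the endothelial genes Emcn and Cldn5 were below it in samples 1 and 2, and no neutrophil or dendritic marker was below it in any sample. Macrophage markers were lowest in sample 3 for 5 of 6 genes. The part of any of these cells in the values of Chac1, Sesn2 and Slc7a11 was not tested.

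On the ER side of the response more genes were lowest than highest in sample 3. Of 35 genes detected on at least 1 array in the lists of XBP1 targets, ER-associated degradation and the ATF6 branch, 19 were lowest in sample 3 (54.3%), beside 33.3% of all detected genes, and 7 were highest there. The medians of the differences from the gene means were 0.069, 0.026 and -0.086 in samples 1 to 3. A range above 0.5 occurred in 1 of the 35 genes, beside 26.8% of all detected genes. Lowest in the same sample were 8 of 8 fibroblast markers, 6 of 7 markers of pericytes and smooth muscle (sums 4133, 6879 and 2840 in samples 1 to 3) and 5 of 6 macrophage markers (sums 7321, 7565 and 4936). None of these markers was below background in any sample, and their part in the ER lists was not tested. Herpud1 belonged to the genes that were lowest in sample 3.

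Among 14 XBP1 targets 8 were highest in sample 1, beside 33% of all detected genes. Dnajb9, an ER co-chaperone that restrains IRE1, stood at 9.85, 9.51 and 9.55, and Dnajb11, another co-chaperone, at 9.24, 9.08 and 8.97. Sdf2l1, also of the ER folding machinery, stood at 8.34, 7.89 and 7.93. Sec24d, a coat subunit of vesicles that carry bulky cargo such as procollagen out of the ER, stood at 8.12, 8.53 and 7.80, a range of 0.73. Sec24d was highest in sample 2 and lowest in sample 3, the same samples as 8 of 8 fibroblast markers, among them Pdgfra at 8.55, 9.24 and 7.82 and Dcn at 11.64, 12.02 and 11.20. Markers of pericytes and smooth muscle had the same highest sample for 7 of 7 genes and the same lowest sample for 6 of 7. The summed linear intensity of the fibroblast markers was 11250, 15385 and 7651, and none was below background. The gland markers Lipf and Bpifb1 were above background in sample 2 alone. The part of any of these cell types in the Sec24d values was not tested. Its window held the 1 UPRE match of the 64 genes of the 8 lists with a promoter window.
Sec24d, chr3:123267420-123267495, plus strand, bases -76 to -1: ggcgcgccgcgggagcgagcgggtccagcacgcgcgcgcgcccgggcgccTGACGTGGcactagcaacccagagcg

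Of 11 measured genes of ER-associated degradation none had a range above 0.5, a size reached by 26.8% of detected genes. Edem1, a lectin that hands misfolded glycoproteins over for degradation, stood at 8.74, 8.65 and 9.0, and its relative Edem2 at 7.43, 7.36 and 7.66. The widest ranges were those of the channel genes Derl3, at 6.05, 5.59 and 5.98, and Derl2, at 6.56, 6.47 and 6.11. Derl3 lay only 0.48 to 0.89 above the background level, and Derl2 0.91 above it in sample 3. In the ATF6 branch 10 of 10 measured genes were detected on every array, beside 60.5% of all named genes. The factor Atf6 stood at 8.79, 8.63 and 8.96, its relative Atf6b at 7.79, 7.83 and 7.88, and the chaperone Calr at 10.30, 10.41 and 10.04.

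**Figure D4:**
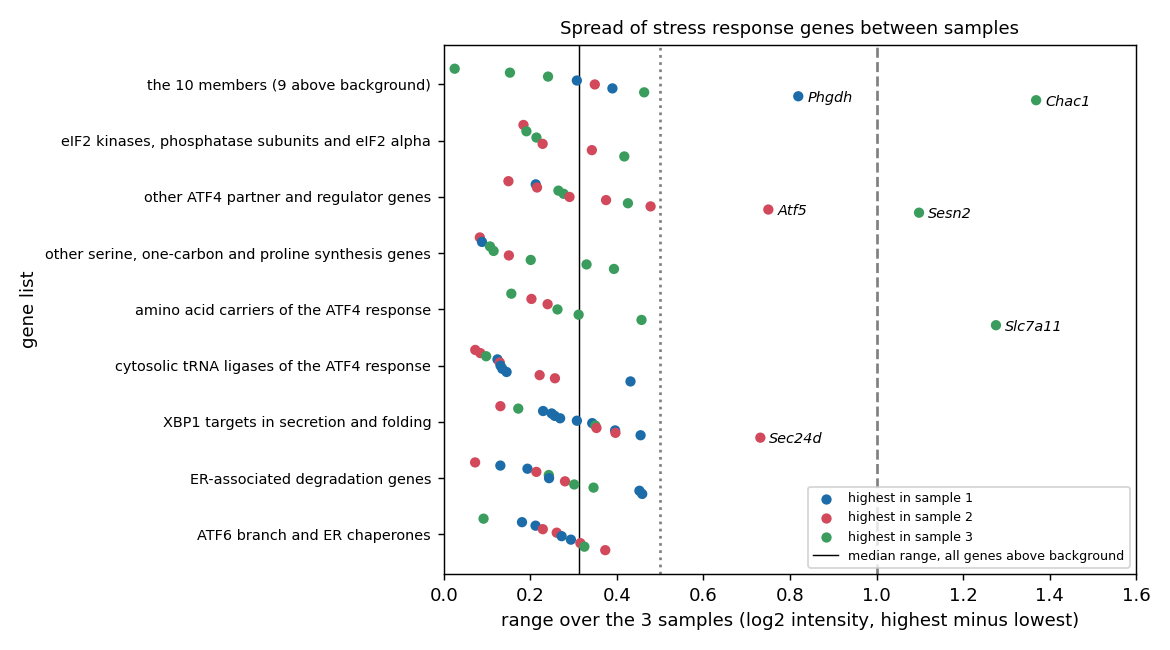
Range over the 3 samples on the log2 scale (horizontal axis) of the 9 detected members and of 78 detected genes in 8 lists of the response, coloured by the sample in which the gene was highest. The solid line marks the median range of all detected genes (0.31) and the dotted and dashed lines mark 0.5 and 1. Only Phgdh, Chac1, Atf5, Sesn2, Slc7a11 and Sec24d lie beyond 0.5 among the genes shown.

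In the lists outside the members, the motifs were found as follows. Of 35 genes with a window in the 5 lists of eIF2 and ATF4 genes, 11 held CARE and none held ERSE. Of 29 genes with a window in the 3 ER lists, 9 held ERSE and none held CARE. Over all 27025 genes with a window the shares were 4.50% for CARE and 0.137% for ERSE. The lists were written from genes known for these branches, so the split describes the lists. Among the members Herpud1, which serves ER-associated degradation, held CARE and ERSE-II and no ERSE. Sesn2 held no match, and Atf3, with a CARE match, had a range of 0.26.

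**Figure D5:**
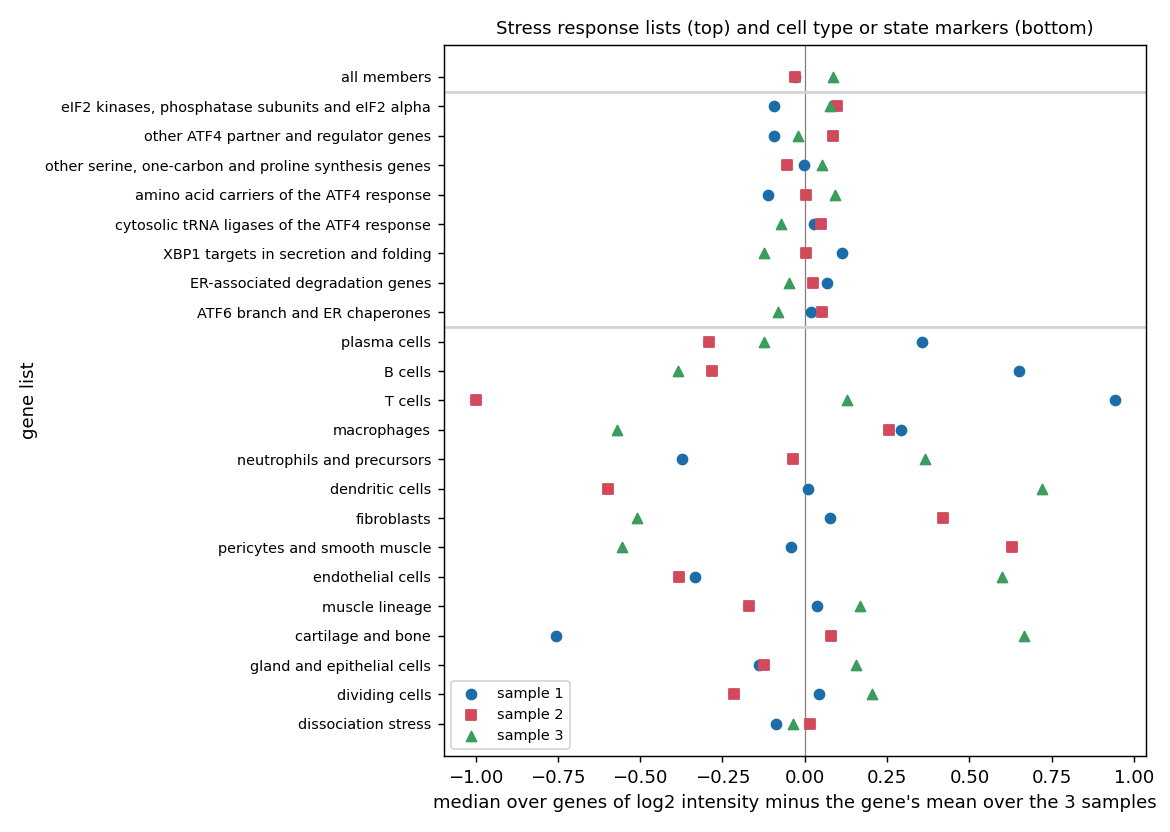
Median over genes of the log2 intensity minus the gene's mean (horizontal axis) in samples 1 (circle), 2 (square) and 3 (triangle) for the members, the 8 lists of the response and 14 lists of cell type or state markers. The member and response medians lie between -0.12 and 0.11, with the symbols of samples 1 and 2 on top of each other for the members. Cell type medians reach -0.999 and 0.94 for T cells.

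The genes with the pattern most like that of Chac1 and Phgdh, the 2 members with a range above 0.5, were sought among 11794 other genes detected on every array, leaving out provisional symbols such as those starting with Gm, by the Euclidean distance between the 3 values after subtracting each gene's mean. For Chac1 they were Orm2, an acute phase protein, at 5.91, 6.14 and 7.19 (distance 0.065), Apol8 at 5.61, 5.89 and 6.90 (distance 0.077) and F10, which encodes coagulation factor X, at 7.37, 7.57 and 8.63 (distance 0.078), and 6 genes lay within 0.1. For Phgdh they were the small RNA Scarna2 at 9.32, 8.52 and 8.64 (distance 0.013), the heat shock gene Hspa1b at 11.51, 10.73 and 10.81 (distance 0.035) and Orc4, of the replication origin complex, at 8.18, 7.42 and 7.54 (distance 0.046), and 31 genes lay within 0.1. A pattern over 3 samples is set by 2 differences, so such likeness is a description.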

How the data were processed

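Total RNA of 3 sorted stroma samples was hybridised as biotin-labelled target to Affymetrix arrays, per the labels' protocols. The values deposited by the authors are log2 intensities of 31873 probe sets on each array. The log2 scale was read from the values, which run from 2.00 to 13.18 with array medians of 5.35, 5.34 and 5.36. Partek is named in the submitters' processing notes, and the sources used here do not give the background correction, normalization or summarization. The platform annotation named 23094 probe sets by a single symbol and 1764 by several, and 7015 stay unnamed here. Only the first kind was used, and where a gene had several the brightest was kept. In 15.5% of probe sets a pair of arrays held the same value, but no member had such a tie. In all counts of the highest or lowest sample, a tie went to the sample with the lower number.

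Detection, ranges, medians and motif matches were computed in Python 3.11.15 with numpy 2.4.6 and pandas 2.3.3. The code of the range count was run on simulated data with a known change, which checks the code and not the threshold. The promoter windows come from RefSeq (GRCm38.p6). The members and lists were chosen with earlier results of these data known. Named genes are the members, the first 2 and the 2 widest of each list of the response, and the nearest 3 patterns. Up to 2 leading markers of a cell type are named as well (others were named after their values were seen). The list genes with a CARE match were also named after their values were seen. Alternatives changed the background level, the normalization, the threshold, the filter and the samples.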

Additional observations from a re-analysis of the deposited data

How the results depend on the processing

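The count of members detected on every array was 9 under every alternative tried except a background at the 99th percentile of the receptor probe sets, where it was 7, with 38.1% of all genes detected in place of 60.5%. Chac1 and Phgdh then passed in 1 sample each. Quantile normalization moved no member's mean or range by more than 0.037, and centring the arrays on their medians by no more than 0.023. Atf4's small range of 0.025 became 0.0036 and 0.0077 under these settings. The count of members with a range above 1 was 1, and 2 at a threshold of 0.5. With 1 sample left out it was 0 to 1, and 0 without sample 3, while 1.84% to 3.49% of all detected genes passed. In the lists of the response the count with a range above 1 was 2, and 0 to 2 with 1 sample left out (0 without sample 3, 1 without sample 1), and the count with a range above 0.5 was 4, and 2 to 3 with 1 sample left out (2 without sample 2 or sample 3). Fewer samples lower a range by construction. No paired analysis was possible because the samples form 1 group. Values within about 1 of the background level are limited by signal over background. Among the members these were those of Chac1 in samples 1 and 2 and of Trib3. List genes such as Derl3, Fgf21 and Vldlr in every sample, Derl2 in sample 3 and Sesn2 in sample 1 were also this dim.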

Other observations

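Genes that cell isolation itself induces were detected throughout. All 10 measured genes of the list for dissociation stress lay above background on every array, beside 60.5% of all named genes. The immediate early genes Fos and Fosb stood at 10.07, 10.18 and 10.26 and at 9.77, 10.17 and 9.90 in samples 1 to 3. The RNA-binding regulator Zfp36 stood at 12.43, 12.50 and 12.51 and the factor Egr1 at 10.44, 11.03 and 10.48. The inducible heat shock genes Hspa1a and Hspa1b, near-identical copies whose probes can share signal, stood at 11.19, 10.43 and 10.76 and at 11.51, 10.73 and 10.81, so that both were highest in sample 1, the sample in which Phgdh was highest. Egr1, Hspa1a and Zfp36 were chosen after their values were seen. The list's medians of the difference from the gene means were -0.089, 0.015 and -0.037, a smaller span than that of any cell type list. Its genes did not share a highest sample, with 2 highest in sample 1, 4 in sample 2 and 4 in sample 3. These counts stand beside 33%, 34.2% and 32.8% of all detected genes. The median range of the list was 0.37, beside 0.31. A range above 0.5 occurred in 3 of the 10 genes, beside 26.8% of all detected genes. The part of dissociation stress in the values of the stress response genes was not tested.

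Markers of dividing cells were lowest in sample 2 for 5 of 5 measured genes and highest in sample 3 for 4, beside 30.9% and 32.8% of all detected genes. Mki67 stood at 9.88, 9.65 and 10.07 and Top2a at 9.35, 9.12 and 9.44. Xbp1 and Phgdh also had their lowest value in sample 2, but both were highest in sample 1. The part of dividing cells in the Xbp1 and Phgdh values was not tested.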
